A study of Mus musculus with 22 samples.

Results

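The neurotrophins and their receptors were followed as 7 genes, Bdnf, Ntf3, Ntf5, Ntrk2, Ntrk3, Ngfr and Sort1, taken by their gene symbols from the 53379 genes of a raw count table of mRNAseq. All 7 passed the filter on low counts. The libraries were made from cell nuclei of the left hippocampus of adult male C57/BL6N mice, which were acquired at 8 weeks of age and acclimatized for 4 weeks. Kainate (70 nl, 20 mM) was injected into the cortex above the right hippocampus and elicited status epilepticus, so that the left hippocampus (CLH) was contralateral to the injection, and sham mice received 0.9% NaCl in the same place. Kainate mice entered the study only if they had a convulsive seizure of Racine grade 5 within 4 h, and tissue was taken after 24 h. Both groups had the same anesthesia and surgery. The extraction text of the labels names right hippocampi, whereas the series' own description and the study's methods name the left ones for these libraries.

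Hippocampi of 8 mice per treatment were pooled into 3 samples of 4 or 2 mice, and nuclei were sorted by NeuN, the product of Rbfox3, into NeuN+ (neurons) and NeuN– (glia) fractions. There were 3 libraries of sham neurons, 3 of kainate neurons, 2 of sham glia and 3 of kainate glia, because 1 sham glia sample failed in preparation. Each value is therefore from a pool of mice, the glia fraction is every nucleus without NeuN rather than 1 cell type, and nuclear RNA was measured, not protein.

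Neurotrophins are secreted growth factors that are made as precursors, cleaved by proprotein convertases and bound by Trk receptor tyrosine kinases. Bdnf encodes brain-derived neurotrophic factor and Ntf5 encodes neurotrophin-4/5, both ligands of TrkB, the product of Ntrk2. Ntf3 encodes neurotrophin-3, the ligand of TrkC, the product of Ntrk3. Ngfr encodes p75NTR, a receptor of the tumor necrosis factor receptor family that binds all neurotrophins and their precursors, and Sort1 encodes sortilin, a sorting receptor that binds precursor neurotrophins together with p75NTR. In the hippocampus, Bdnf is best known as a gene that neuronal activity switches on and that acts on synapses and on the mossy fibers of granule cells.

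Bdnf (ENSMUSG00000048482) lies on the + strand of chromosome 2 at 109674700–109727007 (GRCm38), with 6217 bp of merged exons in 11 annotated transcripts. Its transcripts begin at several alternative first exons that share 1 coding exon, and the counts add all of them into 1 value. RefSeq promoter windows (GRCm38.p6) were at hand for 4 of the 7 genes and covered 11 starts, 7 of them of Bdnf. The 250 bases before each start were searched on both strands for the cAMP response element TGACGTCA, its half-site TGACG, the AP-1 site TGAGTCA, the E-box CACGTG, the Egr1 site GCGTGGGCG and the REST core TTCAGCACC. The half-site, which lies within the full element, was found at 1 member start, that of Bdnf at position 109692436, where it stands on the opposite strand 35 bases before the start. The 100 bases before this start are shown 5′ to 3′ on the + strand, with that half-site, read as its reverse complement, in capitals, because it is the classical kind of site for activity-dependent transcription of Bdnf.
Bdnf chr2:109692336-109692435: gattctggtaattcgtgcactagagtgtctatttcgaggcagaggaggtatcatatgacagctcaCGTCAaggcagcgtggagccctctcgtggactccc
Of 32851 promoter windows of the same length, 17.8% held the half-site, against 1.55% for the full element and 4.46% for the AP-1 site. The E-box, present in 6.02% of windows, was found at 1 start of Ntf3. The full element, the AP-1 site, the Egr1 site (0.536%) and the REST core (0.301%) were in none of the 11 windows. These matches describe sequence only, since gene counts do not tell the first exons apart.

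Ntf3 (ENSMUSG00000049107) lies on chromosome 6 at 126101412–126166910 on the − strand, Ntf5 (ENSMUSG00000074121) on chromosome 7 at 45413695–45417179 on the + strand, and Ntrk2 (ENSMUSG00000055254) on chromosome 13 at 58806569–59133970 on the + strand. Ntrk3 (ENSMUSG00000059146) lies on chromosome 7 at 78175959–78738012 on the − strand, Ngfr (ENSMUSG00000000120) on chromosome 11 at 95568818–95587735 on the − strand, and Sort1 (ENSMUSG00000068747) on chromosome 3 at 108284082–108361511 on the + strand. Exons of the antisense gene Gm45346 covered 896 bp of the Bdnf exons and those of Gm12523 covered 338 bp of the Sort1 exons. Whether the counting used strand is not given in the sources used here, so reads in these stretches may come from either gene.

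The libraries held 12058875 to 45428465 counts (median 21282859). The 4 libraries numbered 1 had a count for 37158 to 41933 genes and the 7 libraries numbered 2 or 3 for 45683 to 50104, so the number goes with the number of genes detected. Sham glia 1 and kainate glia 2 were made from 0.05 ng of RNA with 15 cycles of PCR, the other 9 from 1 ng with 10 cycles. The sort was visible in the markers of each cell type. The summed normalized CPM (counts divided by the library size after scaling with TMM factors, the unit of all levels given here) of 9 neuron markers ranged from 3330 to 7735 in neurons and from 639 to 1069 in glia. Of these 9 markers, 8 were higher in neurons, and the ninth, Prox1, had a log2 difference of -0.17. All 8 astrocyte, 8 microglia, 7 oligodendrocyte and 6 oligodendrocyte precursor markers were higher in glia, as were 5 of 7 endothelial and 7 of 8 pericyte and fibroblast markers. Glial markers in the glia fraction were not level between libraries: the summed CPM of the 7 oligodendrocyte markers was 8854 and 39451 in the 2 sham glia libraries and ranged from 4939 to 27547 in kainate glia.

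The first question was where the genes were expressed. Compared per kilobase of merged exons, Sort1 was the highest of the 7 in sham neurons, at 51.9 ± 9.31 normalized CPM per kb (SD, n = 3), followed by Ntrk2 at 19.1 ± 1.64. Ntf3 (9.93 ± 6.94), Bdnf (9.27 ± 6.06) and Ntrk3 (8.65 ± 1.89) followed with overlapping libraries, and Ntf3 also overlapped Ntrk2. Ntf5 (0.798 ± 0.142) and Ngfr (0.302 ± 0.194) were far below and did not overlap each other. In sham glia (n = 2) the order was Sort1 (43.9 ± 24), Ntrk2 (22.2 ± 15.2), Ntrk3 (2.46 ± 0.23), Ntf3 (1.43 ± 0.0931), Bdnf (1.27 ± 0.335), Ntf5 (0.32 ± 0.419) and Ngfr (0.288 ± 0.224), with overlap between the first 2, between Ntf3 and Bdnf, and between the last 2. In kainate neurons (n = 3) Bdnf was at 31.3 ± 18.2, between Sort1 (42.5 ± 12.8) and Ntrk2 (24.8 ± 3.71) and overlapping both, and Ntf3 came after Ntrk3 (12.1 ± 1.1), at 2.8 ± 2.05. In kainate glia (n = 3) Bdnf came after Sort1 (25.5 ± 11.3) and Ntrk2 (14.9 ± 7.71), at 4.57 ± 0.563, and Ngfr, at 0.978 ± 0.248, after Ntrk3 (2.87 ± 0.163), overlapping Ntf3 (0.646 ± 0.276). Scaled by the longest transcript instead, Ntrk2 came before Sort1 in sham glia, kainate glia and kainate neurons. Bdnf in kainate neurons came after both, Ntf3 in sham neurons came after Bdnf and Ntrk3, and Ntf3 in sham glia came after Bdnf, so these places rest on the length used.

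Neurons and glia differed most clearly in Bdnf, Ntf3 and Ntrk3, all higher in neurons. The log2 difference over both treatments was 2.82 ± 0.40 (SE) for Bdnf (FDR = 0.000177), 2.44 ± 0.50 for Ntf3 (FDR = 0.00282) and 1.95 ± 0.25 for Ntrk3 (FDR = 8.93e-05), with n = 6 and 5 libraries. Thus 3 of 7 members were called at an FDR below 0.25, where 37.2% of all 40714 genes tested were called. Every neuron library was above every glia library for Bdnf, Ntrk3 and, by a narrow margin (lowest neuron library 1.90 CPM, highest glia library 1.88 CPM), Ntf5, whereas for Ntf3 the lowest neuron library (1.67 CPM, kainate neurons 3) was below both sham glia libraries. Ntf5 (1.26 ± 0.73, FDR = 0.269), Sort1 (0.49 ± 0.34, FDR = 0.344), Ntrk2 (0.25 ± 0.35, FDR = 0.623) and Ngfr (-0.86 ± 0.55, FDR = 0.318) were not called. A second fit took the pool of origin as a block, read from the treatment and replicate number, and compared neurons and glia within it. All 7 were then called, against 59.7% of all genes, with Ngfr higher in glia (-1.11 ± 0.41, FDR = 0.0606) and Ntrk2 at 0.40 ± 0.24 (FDR = 0.218). Sham glia 1 bore on the receptors: without it Ntrk2 (0.76, FDR = 0.121), Sort1 (0.87, FDR = 0.091) and Ngfr (-1.13, FDR = 0.139) passed without a block. Ntf5 passed without kainate glia 1 (1.07, FDR = 0.242) or sham glia 3 (3.09, FDR = 0.0252), and Sort1 also without kainate glia 1 (0.64, FDR = 0.237). In bulk fractions, fewer cells of a type and less RNA per cell cannot be told apart.

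The level in glia was set beside that of neuron markers. In sham mice Bdnf in glia was at 13.7% of its mean level in neurons, Ntf3 at 14.4% and Ntrk3 at 28.4%, while the 9 neuron markers were at 7.16% to 93.2% with a median of 13.6%, which was the value of Rbfox3 itself. After kainate the shares were 14.6% for Bdnf, 23.1% for Ntf3 and 23.8% for Ntrk3, against a marker median of 17%. Ntrk2 (116% and 60.4%), Sort1 (84.5% and 60.1%), Ngfr (95.3% and 354%) and Ntf5 (40.2% and 41.9%) lay above the 8 markers other than Prox1 in both treatments. The part of neuronal RNA in the glia values of Bdnf, Ntf3 and Ntrk3 was not tested.

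**Figure D1:**
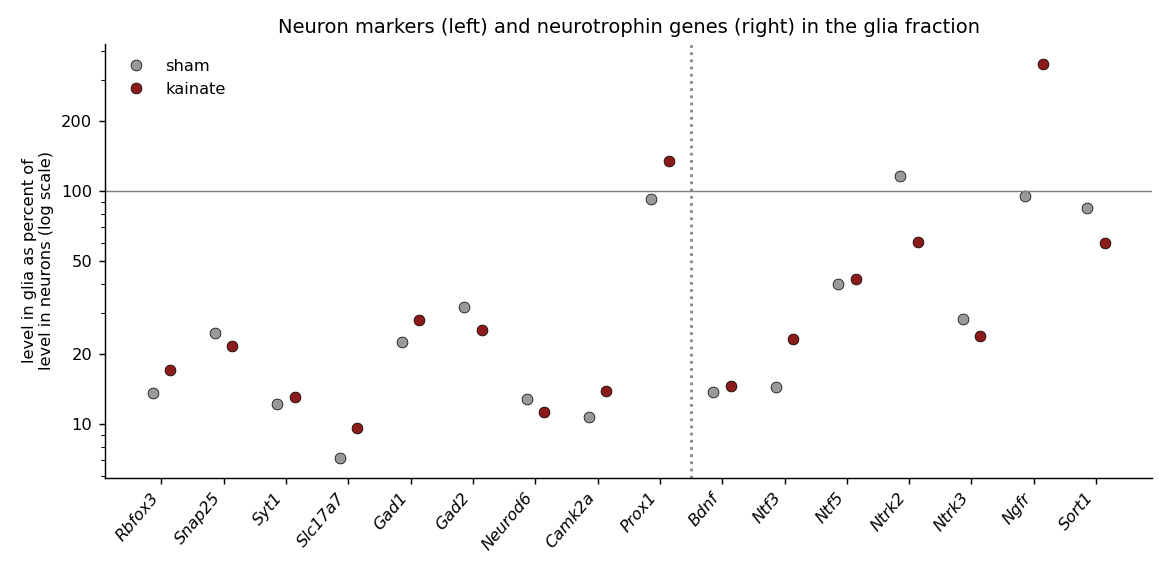
Mean level in the glia fraction as a percent of the mean level in the neuron fraction (log scale), for 9 neuron markers on the left and the 7 neurotrophin genes on the right, with grey points for sham and dark red points for kainate. Bdnf sat at 13.7% in sham and 14.6% in kainate mice, close to Rbfox3 at 13.6% and 17%, whereas Ngfr moved from 95.3% to 354%.

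The next question was what kainate changed in each fraction. Bdnf was the ligand whose values after kainate were above those of every sham library, in neurons and in glia. Its normalized CPM in sham neurons 1, 2 and 3 was 101, 36.5 and 35.3, and in kainate neurons 1, 2 and 3 it was 325, 135 and 123. Every kainate library was above every sham library, and the libraries numbered 1 were the highest of both groups. Within each number the kainate library exceeded the sham library by 1.68, 1.89 and 1.80 on the log2 scale, so that the ratio differed little between the numbers although the level did. The fitted log2 fold change in neurons was 1.75 ± 0.49, a 3.37-fold higher level, with an FDR of 0.622, and was not called. In the same test Bdnf was called among genes with an Entrez Gene ID (1.75, FDR = 0.148) and with neurons fitted alone (1.77, FDR = 0.243). The paper, which analyzed neurons and glia separately, lists Bdnf as upregulated in these neurons at an FDR below 0.25. With the replicate number as a block the estimate was 1.79 ± 0.19 and Bdnf was upregulated (FDR = 4.41e-10). That fit has 3 residual degrees of freedom and borrows 48 from the spread of other genes, against 7 and 6.76 without the block. Without a block, Bdnf passed when sham neurons 1 was left out (2.44, FDR = 0.237), when all 4 libraries numbered 1 were left out (1.77, FDR = 0.000372) and in DESeq2's Wald test (1.76, FDR = 0.0752).

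In glia, Bdnf was at 9.39 and 6.45 CPM in sham glia 1 and 3 and at 31.4, 24.5 and 29.3 CPM in kainate glia 1, 2 and 3. The groups did not overlap, and the within-number differences were 1.73 and 2.18 on the log2 scale. The fitted change was 1.84 ± 0.57 (FDR = 1, not called), and with the block it was 1.96 ± 0.24 and Bdnf was upregulated (FDR = 6.71e-08). The summed CPM of the neuron markers was 639 and 939 in sham glia and ranged from 778 to 1069 in kainate glia, where Rbfox3 was at 31.2 ± 6.99 (n = 2) and 37.4 ± 12.8 (n = 3). Its part in the change of Bdnf in glia was not tested. The difference between the kainate effects in neurons and glia was -0.09 ± 0.71 (FDR = 1), and with the block -0.17 ± 0.30 (FDR = 1).

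Ntf3 had lower values after kainate. In sham neurons 1, 2 and 3 it was at 30.8, 10.1 and 10.2 CPM and in kainate neurons at 8.61, 4.13 and 1.67 CPM. Sham and kainate neurons did not overlap, and each kainate library was below the sham library of its number, by -1.83, -1.28 and -2.58 on the log2 scale. The fitted change was -1.83 ± 0.62 (FDR = 1, not called), and with the block Ntf3 was downregulated, with -1.88 ± 0.31 (FDR = 2.82e-05). Without a block single libraries moved the estimate, to -1.09 without sham neurons 1 and -2.54 without kainate neurons 1, while with the block it ranged from -2.19 to -1.56 over the libraries left out and was called each time. Without the libraries numbered 1 it also passed without a block (-1.86, FDR = 0.00129). In glia it was at 2.56 and 2.33 CPM in sham glia 1 and 3 and at 0.627, 1.12 and 1.57 CPM in kainate glia 1, 2 and 3, from 10 to 56 counts a library. Here too the groups did not overlap, but the within-number differences of -1.94 and -0.55 were unequal. The change in glia was -1.12 ± 0.69 (FDR = 1), and -1.15 ± 0.44 with the block, which called it (FDR = 0.215). That call was lost without sham glia 1 (-0.56, FDR = 1), kainate glia 1 (-0.59, FDR = 1) or sham neurons 3 (-1.17, FDR = 0.266), and also with edgeR's newer quasi-likelihood method (-1.02, FDR = 0.533) or a filter of CPM 1 or more (-1.14, FDR = 0.252). Without sham glia 3 the estimate was -2.02.

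Ntf5 was scarce, with 1 to 95 counts a library. It was at 2.55, 1.90 and 1.90 CPM in sham neurons 1, 2 and 3 and at 2.28, 2.42 and 3.42 CPM in kainate neurons, and these groups overlapped. In glia the libraries numbered 1 held 1 count each, in sham and in kainate, whereas sham glia 3 was at 1.64 CPM and kainate glia 2 and 3 were at 1.46 and 1.88 CPM. The fitted change was 0.36 ± 0.93 in neurons and 0.42 ± 1.07 in glia (FDR = 1 for both), and neither was called with the block.

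**Figure D2:**
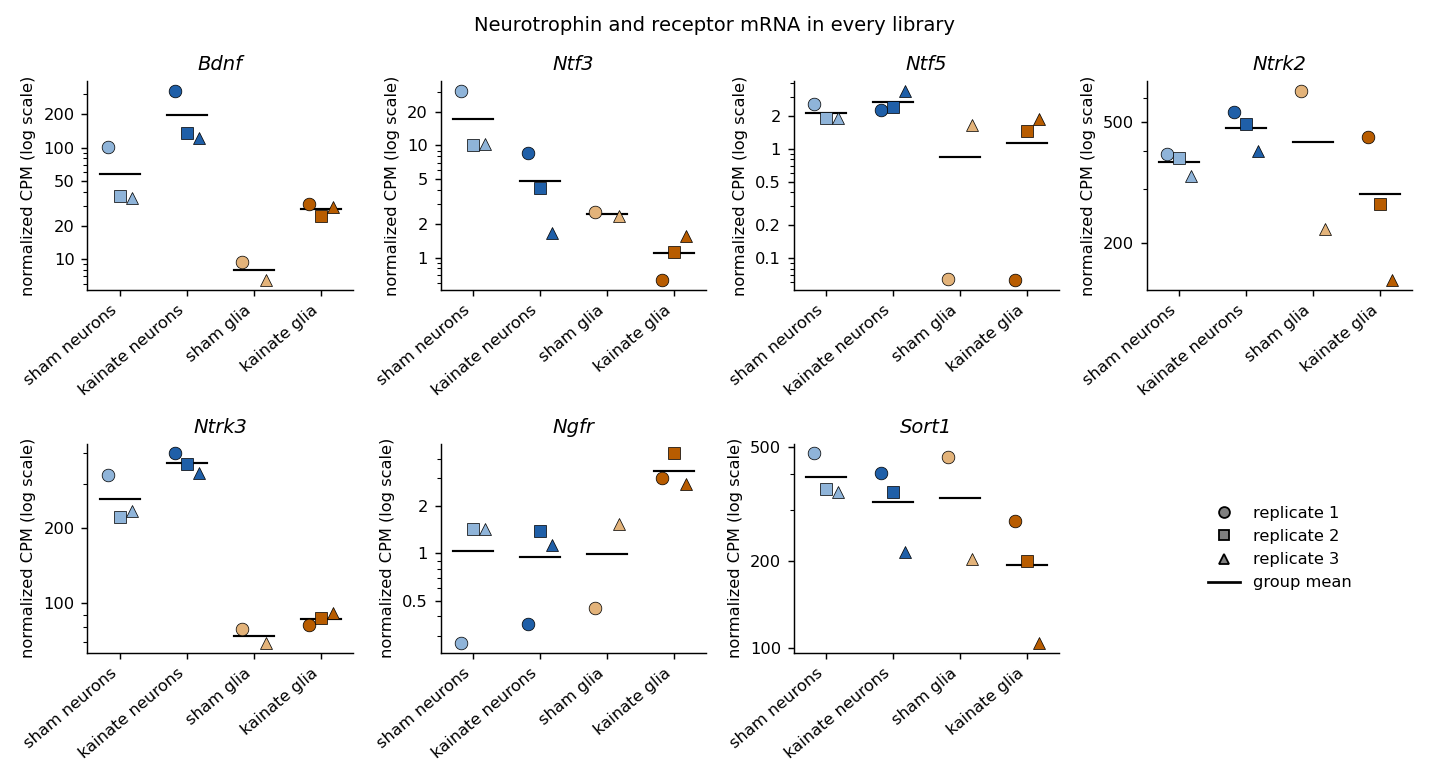
Normalized CPM (log scale, a separate range for each gene) of the 7 genes in the 11 libraries by group, with the replicate number as the symbol and the group mean as a line. Bdnf in kainate neurons (123 to 325 CPM) lay above sham neurons (35.3 to 101), Ntf3 lay below, and Ngfr stood out in kainate glia (2.75 to 4.34).

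Of the Trk receptor genes, Ntrk3 was at 326, 222 and 235 CPM in sham neurons 1, 2 and 3 and at 399, 361 and 333 CPM in kainate neurons. The groups did not overlap, although the nearest libraries were close, and the kainate library was higher within each number (0.29, 0.70 and 0.50 on the log2 scale). The fitted change was 0.48 ± 0.31 (FDR = 1, not called). With the block it was 0.50 ± 0.18 and called (FDR = 0.163), a call that no longer held when any 1 of the 6 neuron libraries was left out, with an FDR of 0.287 without sham neurons 1, 0.368 without sham neurons 2, 0.86 without sham neurons 3, 0.292 without kainate neurons 1, 0.362 without kainate neurons 2 and 0.866 without kainate neurons 3. In glia Ntrk3 was at 79 and 69.2 CPM in sham and at 81.5, 86.9 and 91.3 CPM in kainate libraries. These groups did not overlap either, and the change of 0.23 ± 0.35 was not called with or without the block (FDR = 0.921 and 1).

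Ntrk2 was at 393, 380 and 333 CPM in sham neurons and at 541, 492 and 400 CPM in kainate neurons 1, 2 and 3. The kainate libraries were all higher, though the lowest of them exceeded the highest sham library only narrowly. The change of 0.38 ± 0.46 was not called (FDR = 1; with the block 0.37 ± 0.17, FDR = 0.478). In glia the 2 sham libraries were far apart, at 636 CPM in sham glia 1 and 222 CPM in sham glia 3, and the kainate libraries spanned 446, 269 and 150 CPM. Their ranges overlapped, while within numbers 1 and 3 the kainate library was lower by -0.51 and -0.56. The fitted change was -0.57 ± 0.51 (FDR = 1), and -0.54 ± 0.21 with the block (FDR = 0.253). Ntrk2 is also known as a gene of astrocytes, and the summed CPM of 8 astrocyte markers was 1373 and 5100 in sham glia and ranged from 729 to 3810 in kainate glia. With the block, 5 of the 8 astrocyte markers fell in glia and Gfap, the intermediate filament of reactive astrocytes, rose (1.77 ± 0.26, FDR = 2.07e-06). Of the 6 oligodendrocyte precursor markers 5 fell and 0 rose. The part of the glial makeup in the Ntrk2 values was not tested.

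Ngfr was the member with the lowest level per kilobase in sham mice, at 4 to 50 counts in each neuron library of sham mice. In sham neurons 1, 2 and 3 it was at 0.269, 1.44 and 1.42 CPM and in kainate neurons at 0.356, 1.38 and 1.13 CPM. These groups overlapped, and the change of -0.13 ± 0.74 was not called (FDR = 1). In glia it was at 0.447 and 1.54 CPM in sham glia 1 and 3 and at 3.01, 4.34 and 2.75 CPM in kainate glia 1, 2 and 3. Every kainate glia library was above both sham libraries, with within-number differences of 2.62 and 0.82. The fitted change in glia was 1.75 ± 0.87 (FDR = 1, not called), with 1.16 without sham glia 1 and 2.89 without sham glia 3. With the block it was 1.64 ± 0.60 and Ngfr was upregulated (FDR = 0.174). Leaving out sham glia 1 (0.84, FDR = 1), kainate glia 1 (0.81, FDR = 1), sham neurons 3 (1.66, FDR = 0.278) or kainate neurons 3 (1.66, FDR = 0.27) ended that call, as did DESeq2's Wald test with the block (1.61, FDR = 0.287), and without sham glia 3 or kainate glia 3 the estimate was 2.74.

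Sort1 was at 474, 355 and 349 CPM in sham neurons and at 404, 347 and 215 CPM in kainate neurons 1, 2 and 3. The groups overlapped, and the change of -0.29 ± 0.44 was not called (FDR = 1; with the block -0.32 ± 0.18, FDR = 0.671). In glia it was at 460 and 203 CPM in sham glia 1 and 3 and at 275, 201 and 104 CPM in kainate glia 1, 2 and 3. The kainate library was lower within both numbers, by -0.74 and -0.97, although the groups overlapped. The fitted change was -0.78 ± 0.49 (FDR = 1, not called), and with the block Sort1 was downregulated in glia, with -0.86 ± 0.22 (FDR = 0.0152). Without a block the estimate was -0.04 without sham glia 1 and -1.26 without sham glia 3, so that its size rested on these libraries. With the block the estimate was -0.74 to -1.0 without each single library. Without a glia library numbered 1 or 3 only 1 pair of glia libraries is left, so those fits do not show that the fall repeats. Without the 4 libraries numbered 1 the estimate was -0.96 and Sort1 was not called. Also with the block, 4 of 7 oligodendrocyte, 2 of 8 microglia and 2 of 8 pericyte and fibroblast markers fell in glia, 0 of these rose, and 0 of 7 endothelial markers were called. Of the 9 neuron markers Gad1 rose and Camk2a fell. The part of these markers in the change of Sort1, Ntf3 and Ngfr in glia was not tested. In neurons, the block called 3 neuron markers (2 higher, 1 lower), 6 astrocyte markers (4 higher, 2 lower), 3 microglia markers (2 higher, 1 lower), 1 oligodendrocyte marker (lower), 2 precursor markers (1 in each direction) and Dcn of the pericyte and fibroblast markers (lower). Without a block 0 of the markers of any type were called in either fraction by edgeR, with up to 2 of a list at an unadjusted p below 0.05, and DESeq2 called 1 astrocyte marker in neurons and 1 microglia marker in glia.

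In counts, none of the 7 members passed in either fraction by edgeR's quasi-likelihood test of the group means, where 0.165% of all genes were called in neurons and 0.101% in glia. At an unadjusted p below 0.05 there were 2 members in neurons and 1 in glia, and DESeq2's Wald test called 1 in neurons and 0 in glia. For these 2 criteria, here and in the lists below, the share of all genes is not given, so the counts have no background beside them. With the replicate number as a block, 3 of 7 members were called in neurons (Bdnf and Ntrk3 higher, Ntf3 lower), against 5.09% of all genes. In glia 4 of 7 were called (Bdnf and Ngfr higher, Ntf3 and Sort1 lower), against 5.79% of all genes. Groups that did not overlap were found for 4 of 7 members in neurons (Bdnf, Ntf3, Ntrk2, Ntrk3) and 4 of 7 in glia (Bdnf, Ntf3, Ntrk3, Ngfr), where 7.86% and 8.22% of all genes did not overlap. The median log2 change of the members was 0.36 in neurons and 0.23 in glia, beside -0.01 and 0.02 over all genes. With the block the members' median was 0.36 in neurons and 0.18 in glia, beside -0.00 and 0.11 over all genes.

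**Figure D3:**
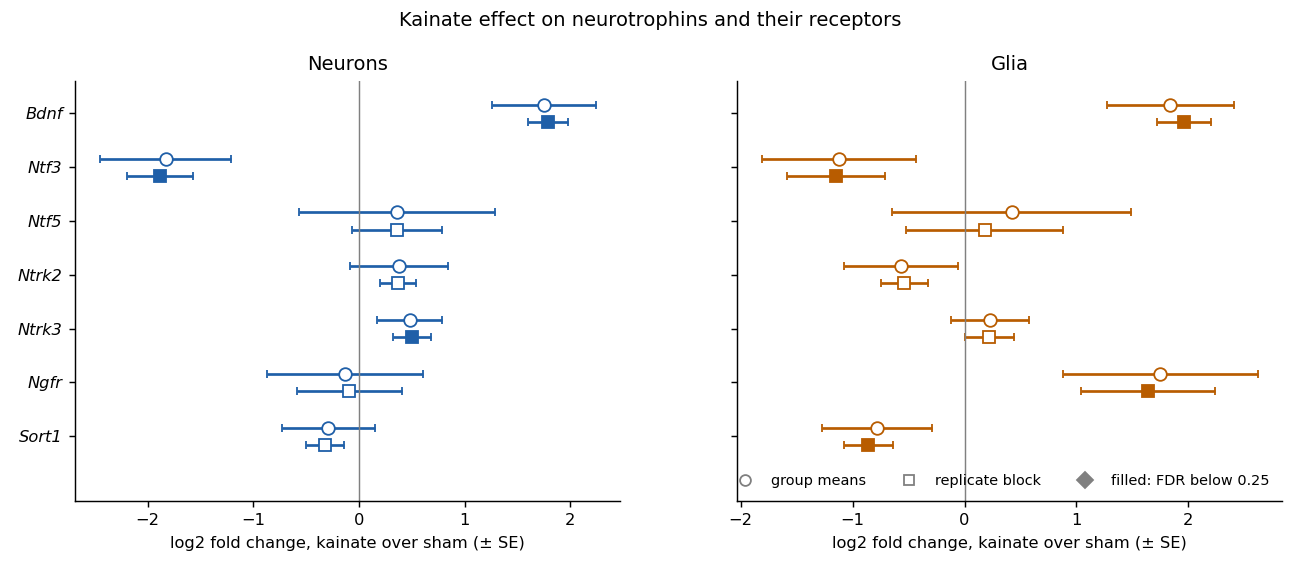
Log2 fold change of kainate over sham with its standard error for the 7 genes in neurons (left) and glia (right), from the fit of the group means (circles) and the fit with the replicate number as a block (squares), filled where the FDR was below 0.25. The estimates of both fits lie close together for each gene (Bdnf in neurons 1.75 and 1.79), while the errors are smaller with the block (0.49 and 0.19).

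Whether the kainate effect differed between neurons and glia was tested as a difference of the 2 effects. None of the 7 members passed, where 0.00246% of all genes did, and none had an unadjusted p below 0.05 or was called by DESeq2's Wald test. With the block, 1 member was called, against 1.94% of all genes: Ntrk2, with a difference of 0.90 ± 0.27 (FDR = 0.13), the sum of a higher level in neurons and a lower level in glia of which neither was called by itself. The block is set apart within each fraction, so this test does not pair neurons and glia of the same pool. The same test with the block called differences in the same direction for 5 of 8 astrocyte markers (Slc1a2 1.83, Aqp4 1.30, Aldoc 1.13, Fgfr3 1.08 and Gja1 1.03), 3 of 6 oligodendrocyte precursor markers, 2 of 8 microglia markers, 1 of 7 oligodendrocyte markers and 1 of 8 pericyte and fibroblast markers, and in the other direction for Dcn of the last list (-1.41). The part of these markers in the Ntrk2 difference was not tested. This call was lost without sham neurons 1 (FDR = 0.424), sham neurons 3 (0.278), kainate neurons 1 (0.434), kainate neurons 3 (0.279), sham glia 1 (0.688) or kainate glia 1 (0.423). The difference for Ngfr was -1.88 ± 1.13 (FDR = 1; with the block -1.73 ± 0.78, FDR = 0.646), so that its change in glia alone is not shown to be particular to glia. With the block, Ngfr passed without sham glia 3 or kainate glia 3.

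Other genes of the pathway were described from lists written from general knowledge. Their counts, like those of the markers, stand beside the shares of all genes called, which with the block were 5.09% in neurons, 5.79% in glia and 1.94% for the difference, and between the fractions without it 37.2%. Proteins that cleave or sort precursor neurotrophins act directly on the ligands. Without a block 0 of 16 tested genes passed in neurons and 0 in glia (5 and 2 at an unadjusted p below 0.05, 2 and 1 by DESeq2). With the block, 8 were upregulated and 0 downregulated in neurons. They included the convertases Pcsk1 (1.57 ± 0.22, FDR = 7.71e-07), Pcsk5 (1.30 ± 0.20, FDR = 5.4e-06), Furin (0.88 ± 0.18, FDR = 0.00127) and Pcsk6 (0.57 ± 0.21, FDR = 0.22), and the sortilin relatives Sorcs3 (1.88 ± 0.24, FDR = 7.87e-08) and Sorcs1 (1.34 ± 0.21, FDR = 8.39e-06). Cpe, a carboxypeptidase of the secretory granule (0.53 ± 0.17, FDR = 0.0982), was called as well. In glia 4 were upregulated and 1 downregulated with the block. Plat, which encodes tissue plasminogen activator (1.42 ± 0.23, FDR = 1.51e-05), Furin (0.69 ± 0.23, FDR = 0.103) and Sorcs3 (0.83 ± 0.29, FDR = 0.152) rose, and Pcsk6 fell (-0.84 ± 0.24, FDR = 0.0407). The effect differed between the fractions with the block for Sorcs1 (1.77 ± 0.33, FDR = 0.000969), Pcsk6 (1.41 ± 0.32, FDR = 0.0126) and Pcsk1 (1.44 ± 0.36, FDR = 0.0311), all more positive in neurons, and for Plat (-1.11 ± 0.29, FDR = 0.0401), more positive in glia. Without the block the median change of the list was 0.36 in neurons and 0.33 in glia. Between the fractions, 7 were higher in neurons, led by the convertases Pcsk2 (2.58 ± 0.37, FDR = 0.000208) and Pcsk5 (2.30 ± 0.34, FDR = 0.000266), and 4 in glia, led by Pcsk6 (-3.31 ± 0.37, FDR = 3.97e-05).

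Genes that BDNF is known to induce, many of them activity-regulated genes that other signals induce as well, were the list with most calls for the kainate effect in neurons and in glia. Of 19 tested, 6 were upregulated in neurons and 3 in glia without a block, and 0 were downregulated in either. In neurons these were Nptx2, a neuronal pentraxin (3.46 ± 0.53, FDR = 0.0566), the transcription factor genes Fosb (3.30 ± 0.57, FDR = 0.108), Fos (3.09 ± 0.59, FDR = 0.15) and Egr2 (2.63 ± 0.51, FDR = 0.153), the kinase gene Sik1 (2.05 ± 0.37, FDR = 0.123) and Arc, a regulator of synaptic receptors (2.16 ± 0.43, FDR = 0.167). In glia they were Fos (5.67 ± 0.80, FDR = 0.0763), Egr1 (4.21 ± 0.69, FDR = 0.0815) and Junb (3.78 ± 0.64, FDR = 0.105), all transcription factor genes. With the block 17 of 19 were upregulated in neurons and 15 in glia. Those added in both fractions were Vgf, a neuropeptide precursor (2.44 ± 0.20, FDR = 1.31e-13 in neurons, and 3.18 ± 0.25, FDR = 8.58e-14 in glia), Npy, Npas4, Egr3, Homer1 and Spry2. Nr4a1, Dusp6 and Spry4 were called in neurons, not in glia, and Crem in glia, not in neurons. Sst, the somatostatin gene, was called in neither (0.56 ± 0.22, FDR = 0.251 in neurons, and 0.69 ± 0.28, FDR = 0.271 in glia). The median change was 2.03 in neurons and 1.66 in glia, beside -0.01 and 0.02 over all genes. Also with the block, Egr1 (-2.14 ± 0.30, FDR = 7.47e-06), Fos (-2.41 ± 0.37, FDR = 5.23e-05) and Junb (-1.93 ± 0.37, FDR = 0.00134) rose more in glia than in neurons, and Dusp6, a phosphatase of ERK, had a more positive effect in neurons (1.06 ± 0.31, FDR = 0.0993). Without the block none of the 19 passed the test of that difference by edgeR or DESeq2, with 3 at an unadjusted p below 0.05. Between the fractions 13 were higher in neurons, led by Egr3 (2.51 ± 0.36, FDR = 0.000175) and Homer1 (2.12 ± 0.31, FDR = 0.000237), and Spry4 was higher in glia (-1.0 ± 0.28, FDR = 0.0205).

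**Figure D4:**
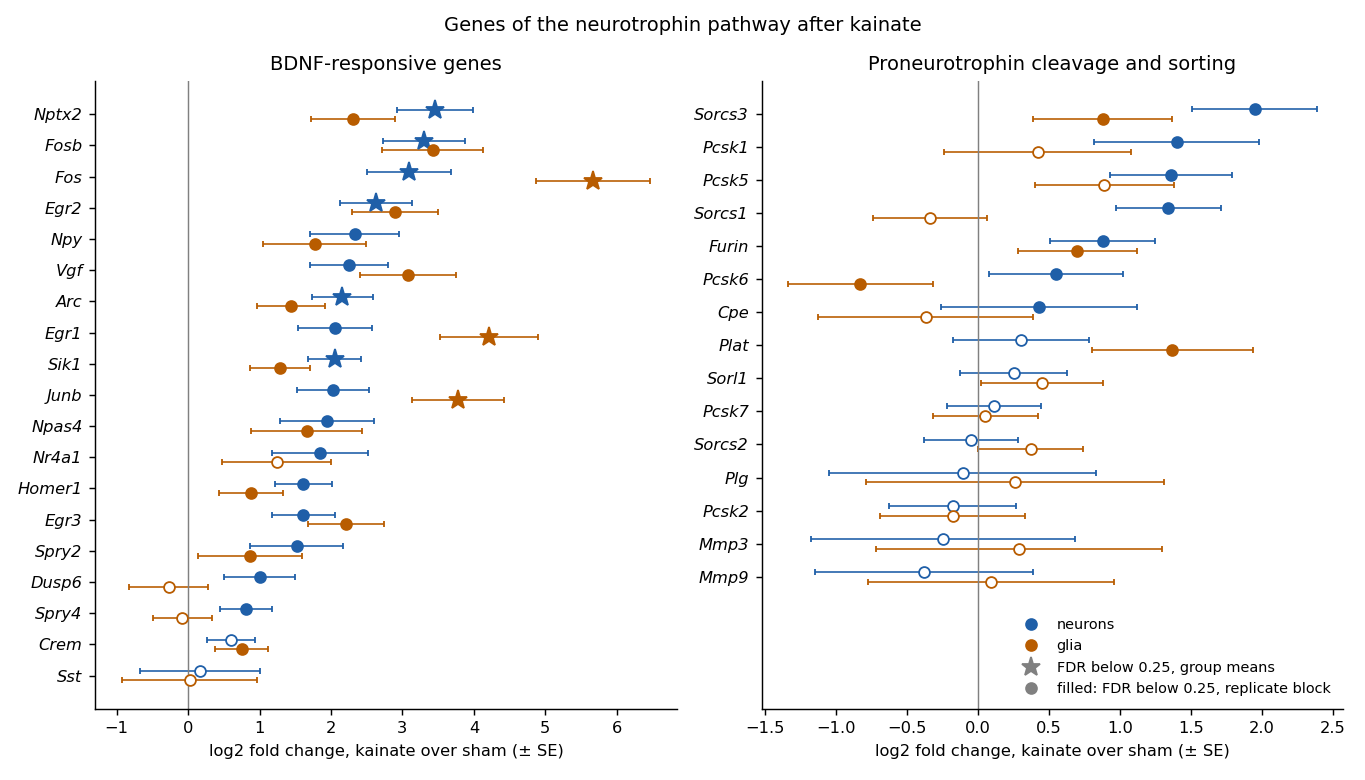
Log2 fold change of kainate over sham with its standard error, from the fit of the group means, for 19 BDNF-responsive genes (left) and 15 of the 16 genes of precursor cleavage and sorting (right) in neurons (blue) and glia (orange). Stars mark an FDR below 0.25 in that fit and filled symbols an FDR below 0.25 with the replicate block; Fos in glia (5.67) and Nptx2 in neurons (3.46) reach furthest on the left, and Sorcs3 in neurons (1.95) on the right.

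Regulators of Bdnf transcription had median log2 changes of 0.13 in neurons and 0.15 in glia, with members in both directions. Of 19 tested, 0 passed in neurons and 0 in glia without a block (2 and 0 at an unadjusted p below 0.05, 0 and 0 by DESeq2). With the block, Npas4, an activity-dependent transcription factor, was upregulated in neurons (1.84 ± 0.27, FDR = 2.32e-06) and in glia (1.45 ± 0.38, FDR = 0.0198). So was Bhlhe40 (0.51 ± 0.19, FDR = 0.212 in neurons; 0.97 ± 0.24, FDR = 0.0103 in glia). In all 4 rose and 1 fell in neurons, and 3 rose and 1 fell in glia. Rest, a repressor of neuronal genes (0.91 ± 0.26, FDR = 0.0363), and Arnt2, the partner of Npas4 (0.61 ± 0.18, FDR = 0.0558), rose in neurons, and Crem in glia (0.79 ± 0.29, FDR = 0.2). Camk2a, also in the list of neuron markers, fell in neurons (-0.80 ± 0.18, FDR = 0.0037) and in glia (-0.69 ± 0.22, FDR = 0.0978). Arnt2 was the single gene of this list with a different effect in the 2 fractions in that fit (1.15 ± 0.29, FDR = 0.0332). Between the fractions 7 were higher in neurons, led by Camk2a (3.03 ± 0.32, FDR = 3.52e-05) and Crtc1, a coactivator of CREB (1.74 ± 0.26, FDR = 0.000243), and 2 in glia, Rest (-1.81 ± 0.31, FDR = 0.000867) and Nr3c1, the glucocorticoid receptor (-1.03 ± 0.40, FDR = 0.098).

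Adaptors and kinases downstream of Trk receptors had medians of 0.01 in neurons and -0.01 in glia. Of 33 tested, 0 passed in neurons and 0 in glia without a block (0 and 1 at an unadjusted p below 0.05, 0 and 0 by DESeq2), and with it 2 and 3 were called, not far from the 5.09% and 5.79% of all genes. With the block Grb2, an adaptor, rose (0.94 ± 0.20, FDR = 0.00131) and Mapk3, which encodes ERK1, fell (-0.97 ± 0.19, FDR = 0.00065) in neurons. In glia the adaptors Sh2b2 (1.59 ± 0.30, FDR = 0.000333) and Gab2 (0.93 ± 0.27, FDR = 0.0429) rose and Gab1 fell (-0.71 ± 0.24, FDR = 0.119), and for Sh2b2 the effect differed between the fractions (-1.44 ± 0.39, FDR = 0.0629). Between the fractions 11 were higher in neurons, led by Shc2 (2.51 ± 0.31, FDR = 6.29e-05), and 8 in glia, led by Gab1 (-4.49 ± 0.44, FDR = 3.3e-05) and Shc4 (-3.05 ± 0.37, FDR = 6.05e-05).

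Partners of p75NTR had medians of -0.00 in neurons and 0.09 in glia, and 0 of 14 passed in either fraction without a block (1 in neurons and 0 in glia at an unadjusted p below 0.05, 0 by DESeq2). With the block Lingo1, a coreceptor of p75NTR, was upregulated in neurons (1.13 ± 0.20, FDR = 5.57e-05) and 0 were called in glia. Between the fractions 9 were higher in neurons, led by Mapk10 (2.30 ± 0.26, FDR = 4.24e-05) and Lingo1 (2.61 ± 0.33, FDR = 7.19e-05), and 3 in glia, led by Traf6 (-1.44 ± 0.29, FDR = 0.00254) and Nradd (-1.24 ± 0.34, FDR = 0.0201).

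Among growth factors and receptors outside the family, 0 of 14 passed in neurons and 0 in glia without a block (2 and 2 at an unadjusted p below 0.05, 1 and 0 by DESeq2), with medians of 0.18 and 0.06. With the block the receptors of the GDNF family Gfra1 (1.71 ± 0.19, FDR = 2.36e-09 in neurons; 1.12 ± 0.23, FDR = 0.00122 in glia) and Ret (1.25 ± 0.32, FDR = 0.0117 in neurons; 2.22 ± 0.44, FDR = 0.000673 in glia) were upregulated in both fractions. Gfra2 fell in neurons (-0.68 ± 0.22, FDR = 0.0843), and Cntfr, a receptor subunit of ciliary neurotrophic factor, rose in neurons (0.79 ± 0.21, FDR = 0.0205) and fell in glia (-0.72 ± 0.25, FDR = 0.157), with a difference of 1.51 ± 0.33 (FDR = 0.00836). Between the fractions 2 were higher in neurons, Gfra4 (2.96 ± 0.33, FDR = 4.04e-05) and Gfra2 (1.65 ± 0.35, FDR = 0.00354), and 2 in glia, Cntfr (-0.91 ± 0.41, FDR = 0.158) and Gfra3 (-1.53 ± 0.72, FDR = 0.179).

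The genes whose log2 CPM followed each member most closely over the 11 libraries were sought among 24722 genes with a mean CPM of at least 1. The libraries share the sort, the treatment and the number, which all add to these correlations, so they are descriptions with no test. For Bdnf they were Scg2 (Pearson's r = 0.991), Nrn1 (0.982) and Map2k3 (0.978), and for Ntf3 they were Gpr12 (0.966), Gabrd (0.964) and Gm15423 (0.96). For Ntrk3 they were Sgsm2 (0.993), Tmem151b (0.992) and Gpr26 (0.99), and for Ntrk2 they were Asic1 (0.968), Cask (0.96) and Tmem132b (0.958). Sort1 was followed by Firre (0.983), Tle2 (0.983) and Nlgn3 (0.981), Ntf5 by Fbxo16 (0.987), Gm19744 (0.982) and Grip2 (0.98), and Ngfr by Lrrc32 (0.956), Slfn10-ps (0.949) and Flnc (0.947). No member was among the 3 nearest genes of another.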

How the data were processed

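mRNAseq counts of 11 libraries of sorted hippocampal nuclei were analysed. Per the study's methods, the authors used Trim Galore 0.4.3 for trimming, Rsubread for alignment to mm10 and featureCounts with the GENCODE M16 genes for counting, with unique alignments only. The deposited values are raw counts for 53379 genes. Samples were grouped by the treatment and NeuN labels. The bisulfite samples were not analysed here. Rows lacking a gene symbol (105) did not enter, and 40714 genes passed filterByExpr of edgeR at a minimum count of 10 and a minimum total of 15. edgeR's quasi-likelihood test (version 4.0.16, R 4.3.3, TMM scaling, 4 group means in 1 model over all libraries) gave log2 fold changes, standard errors (the fold change divided by the square root of F) and Benjamini-Hochberg FDR over all genes, with FDR below 0.25 as the threshold. Normalized CPM use TMM factors. Exon lengths and coordinates are of GENCODE M21 on GRCm38, promoters of RefSeq.

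Replicate numbers were used as a block in a second fit, because deviations from group means correlated between samples with the same number. The correlation was 0.161 to 0.787 in the 5 pairs of kainate and sham libraries and 0.24 to 0.668 in the 5 pairs of neurons and glia. Pairs of unlike number ranged from -0.787 to 0.418 and from -0.668 to 0.465, so the ranges overlapped. Neurons and glia of the same treatment and number were taken as the same pool of mice, a reading of the library titles. The 2 sham glia libraries deviate in exactly opposite ways by construction. Kainate glia 2 has no sham partner and adds nothing to the kainate effect in the fit with the block. Leaving out any other glia library leaves a single pair for the glia effect. Its spread is then taken from neurons and from other genes. What the number stands for (pool size, batch or sequencing run) is not given in the sources used here. A total of 11 libraries bounds the precision. Without a block, p-values measure the spread between pools. With a block they measure the spread left after differences between numbers or pools are removed.

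The members and the gene lists were chosen with earlier results of these data known, and the lists were written from general knowledge. The genes named are the 7 members, list genes called in a kainate comparison or in the difference (for cell type markers, mostly as counts), the 2 list genes with the smallest p in each direction between the fractions, and the 3 genes most correlated with each member. Alternatives were DESeq2 1.42.0 (its size factors and its Wald test), other filters and gene sets, edgeR's newer and robust methods, separate fits of neurons and of glia, FDR below 0.05, a covariate for low RNA input, and fits with libraries left out. Fits without the libraries numbered 1, and the block under other settings, were added after the data were seen. Values of a few list genes are not reported here.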

Additional observations from a re-analysis of the deposited data

Results flagged for a closer look

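With the replicate number as a block, the kainate effect on Ntrk2, the gene of the BDNF receptor TrkB, differed between the fractions, with the effect in neurons minus the effect in glia at 0.90 ± 0.27 on the log2 scale (FDR = 0.13 by edgeR's quasi-likelihood test). It was flagged because 2 groups' effects under the same contrast differed by a test of the difference, which does not pair neurons and glia of the same pool. Within the numbers, kainate neurons were higher than sham neurons in 3 of 3 pairs and kainate glia lower than sham glia in 2 of 2 pairs. The same test called 5 of 8 astrocyte markers in the same direction, among them Slc1a2 at 1.83, and their part in the Ntrk2 difference was not tested. Without the block the difference was 0.95 ± 0.69 (FDR = 1). Groups of 2 or 3 libraries were too small for the check of single outlying samples.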

How the results depend on the processing

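Without a block, members called in neurons rose from 0 to 1 with genes that have an Entrez Gene ID, with neurons fitted alone and with DESeq2's Wald test (Bdnf each time), and to 2 with DESeq2's independent filtering and without the libraries numbered 1 (Bdnf and Ntf3). In glia they rose from 0 to 1 (Bdnf) in the last of these 2 settings and with independent filtering, where Ntf5 and Ngfr had no adjusted p in glia. Between neurons and glia 3 became 6 without both low-input libraries and 7 without the libraries numbered 1, and 1 more passed in other settings: Ntf5 with DESeq2's Wald test (FDR = 0.206), edgeR's newer method (0.126) or no filter (0.243), Ngfr with the CPM filter (0.224) and Sort1 with the low-input covariate (0.23). With the replicate block the counts were 3 in neurons, 4 in glia and 1 for the difference, and with the pool as the block 7 between the fractions. These blocks changed no other call. For the other settings of this paragraph the share of all genes called is not given. A rise there is therefore not shown to be particular to the members. Not every sample correlated best with its own number. Within the blocked fit, members called in glia fell to 2 at an FDR below 0.05 or without both low-input libraries and to 1 without the libraries numbered 1, and those for the difference to 0 in these 3 settings. Leaving out each library gave 0 to 1 in neurons, 3 to 6 between the fractions and, with the block, 2 to 5 in glia and 0 to 2 for the difference.

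Signs turned for values that were not called. The glia effect of Ntf5 was -0.68 and that of Ntrk2 0.45 without both low-input libraries. For the difference, Ntf5 was 0.19 with the block, 0.01 with DESeq2's size factors, Wald test (with or without independent filtering) or the filter of CPM 1 or more, 0.06 with Entrez genes, 1.04 without both low-input libraries and 0.49 without the libraries numbered 1. Bdnf was 0.01 with DESeq2's size factors and 0.005 in its Wald test (with or without independent filtering), Ntrk2 was -0.08 without both low-input libraries, and Sort1 was -0.21 there and -0.0019 without the libraries numbered 1. Over the libraries left out, Ngfr in neurons ranged from -0.55 to 0.24, Ntf5 in glia from -0.47 to 4.07, Ntrk2 in glia from -1.16 to 0.41 and Ntrk2 between the fractions from -0.07 to 0.76. For the difference the ranges were -0.68 to 0.60 for Bdnf, -1.42 to 0.03 for Ntf3, -3.71 to 0.83 for Ntf5, -0.03 to 1.52 for Ntrk2 and -0.24 to 0.97 for Sort1. The cause was not tested. Where 1 sham glia library remains, it is taken to vary like the other groups.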
